A study of Mus musculus with 5 samples.

Results

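Alveolar type I cells were examined in 4 unsorted single-cell RNA libraries of C57BL/6J mouse lung. Members were chosen by their own counts: a barcode was taken when it held 3 or more of 8 genes (Ager, Hopx, Rtkn2, Akap5, Spock2, Clic3, Aqp5 and Col4a3), had less than 2% of its counts in Sftpc, and held no count of Cdh5 or Col1a1. Of 12707 barcodes with over 700 and under 8000 detected genes and under 5% mitochondrial counts in these libraries, 193 met this rule. These libraries came from newborn mice kept in room air and from newborns given hyperoxia (over 95% O2) for 3 days and then room air, with no other allele or agent, and lungs were taken at postnatal day (pnd) 7 or pnd60. Each of the 4 conditions, Air pnd7, Hyperoxia pnd7, Air pnd60 and Hyperoxia pnd60, was 1 library of whole lung, and neither the number of mice behind a library nor their sex was given. Hence no condition had a replicate, and no test between conditions was made. Every interval covers counting error only, and age cannot be told apart from any batch that differed between the libraries. Values for 4 libraries are given in the order above throughout.

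Type I cells are the thin, flat epithelial cells that cover most of the gas-exchange surface of the lung. They share a fused basement membrane with the capillary endothelium, seal the airspace with tight junctions, and send signals such as Vegfa and Pdgfa to the endothelium and mesenchyme beneath them. Type II cells, which make surfactant, can replace them after injury. The thin cytoplasm of type I cells makes them hard to recover intact when a lung is dissociated.

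The promoters of 4 genes are shown, since these genes differed most between the ages in the members with 5 or more markers. They had the 2 highest and the 2 lowest pnd60 over pnd7 ratios, ranked by the smaller of the log2 ratios in air and after hyperoxia, hemoglobin genes aside. Each window runs from 250 bases before to 50 bases after the RefSeq start (GRCm38.p6), 5′ to 3′ in the direction of transcription, and capitals mark a match to 1 of 3 motifs searched on both strands.
Igfbp6, chr15:102143936-102144235, plus strand: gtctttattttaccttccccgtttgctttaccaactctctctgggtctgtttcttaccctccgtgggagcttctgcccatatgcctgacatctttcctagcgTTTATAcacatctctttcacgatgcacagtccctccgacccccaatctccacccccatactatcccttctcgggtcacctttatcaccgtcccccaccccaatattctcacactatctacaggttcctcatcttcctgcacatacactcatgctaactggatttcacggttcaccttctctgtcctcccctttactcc
Cyp4b1, chr4:115647672-115647971, minus strand: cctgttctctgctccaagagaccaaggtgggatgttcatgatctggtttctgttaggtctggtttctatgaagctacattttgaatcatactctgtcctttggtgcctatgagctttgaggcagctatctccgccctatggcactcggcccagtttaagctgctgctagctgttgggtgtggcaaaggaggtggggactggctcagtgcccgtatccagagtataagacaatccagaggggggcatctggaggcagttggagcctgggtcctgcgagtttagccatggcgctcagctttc
Aqp1, chr6:55336049-55336348, plus strand: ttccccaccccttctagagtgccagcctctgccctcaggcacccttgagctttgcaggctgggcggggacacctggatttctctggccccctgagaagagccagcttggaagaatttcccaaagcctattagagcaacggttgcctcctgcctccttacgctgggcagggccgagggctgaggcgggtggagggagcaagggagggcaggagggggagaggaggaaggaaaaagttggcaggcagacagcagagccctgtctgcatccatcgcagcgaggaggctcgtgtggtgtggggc
Tmsb10, chr6:72958699-72958998, minus strand: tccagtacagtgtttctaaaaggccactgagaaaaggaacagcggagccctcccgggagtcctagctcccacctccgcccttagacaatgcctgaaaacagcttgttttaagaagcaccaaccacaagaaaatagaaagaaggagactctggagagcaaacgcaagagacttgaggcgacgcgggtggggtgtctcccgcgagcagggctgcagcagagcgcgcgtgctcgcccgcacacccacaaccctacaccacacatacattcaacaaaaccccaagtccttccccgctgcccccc
Igfbp6 binds insulin-like growth factors, Cyp4b1 is a cytochrome P450 of the lung, Aqp1 is a water channel and Tmsb10 binds actin monomers. The motifs were the TEAD core GGAATG, the NKX2-1 core CACTTGA and the TATA box TATAAA. The Igfbp6 window held 1 TATA box match, on the opposite strand, and the other 3 windows held no match to these letters.

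There were 30 members in Air pnd7, 30 in Hyperoxia pnd7, 51 in Air pnd60 and 82 in Hyperoxia pnd60. The share of members among passing barcodes was 1.30% in Air pnd7 (30 of 2308, exact Clopper-Pearson 95% interval 0.879 to 1.85%) and 2.41% in Hyperoxia pnd7 (30 of 1246, 1.63 to 3.42%). It was 1.16% in Air pnd60 (51 of 4397, 0.865 to 1.52%) and 1.72% in Hyperoxia pnd60 (82 of 4756, 1.37 to 2.14%). At both ages the hyperoxia library held the larger share of all members, and the intervals of air and hyperoxia overlapped. At pnd7 they did not overlap for members with 5 or more markers, with 0.910% (0.564 to 1.39%) in air and 2.17% (1.43 to 3.14%) in hyperoxia, and at pnd60 the direction turned in members with Epcam and without counts of other classes, with 0.341% and 0.294%. The members together held 347250, 403818, 504694 and 682227 counts, with medians of 9364, 9907, 6170 and 4399 counts per barcode. No barcode sequence was shared between the members of any pair of libraries, and 5 to 7 deposited barcode sequences were shared between pairs of these 4 libraries.

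The label was then checked against the defining markers. Ager, the receptor for advanced glycation end products and the best known type I marker, had 1, 2, 0 and 0 counts in the members, and 29 counts in all barcodes of the 4 libraries together. Pdpn, the membrane glycoprotein podoplanin that also marks type I cells, had 0 counts in all barcodes of these libraries. A gene near 0 in every cell of the lung says nothing of these cells, and the rule in effect rested on the other 7 genes. Hopx, a homeodomain protein of type I cells, was detected in 27, 30, 49 and 82 of the 30, 30, 51 and 82 members, but it is a gene of the rule and gives no check of the label.

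Members fell into a group with most markers and a group with few. The number with 5 or more of the 8 markers was 21, 27, 33 and 46, and the remaining 9, 3, 18 and 36 had 3 or 4. Exactly 7 markers were found in 14, 23, 27 and 39 members, and exactly 3 in 4, 3, 13 and 29. Just outside the rule, 26, 16, 63 and 92 barcodes had exactly 2 markers, and 18, 8, 43 and 74 of these also held a count of Ptprc, the leukocyte surface protein CD45. At the Sftpc limit, the highest member reached 1.85%, 0.390%, 0.0718% and 1.91%. The lowest barcode left out on Sftpc alone was at 2.42%, 4.66%, 3.28% and 2.19%.

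**Figure D1:**
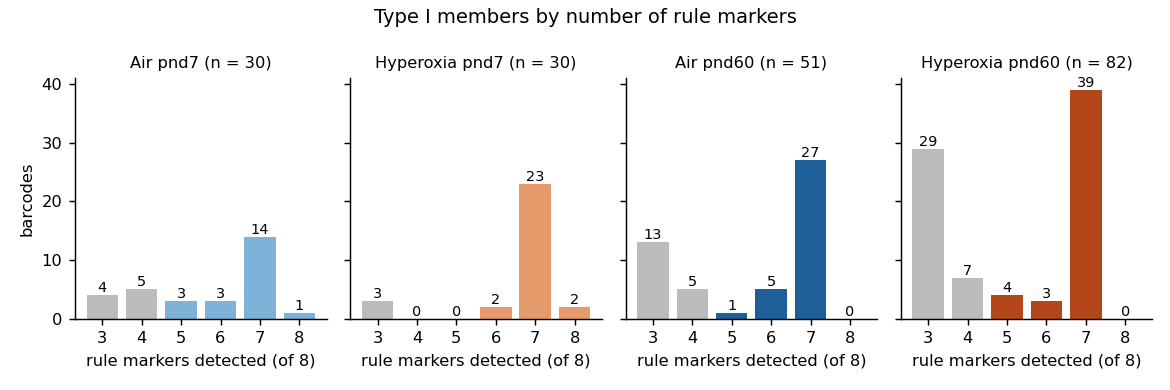
Number of members (y axis, barcodes) by how many of the 8 rule markers they held (x axis), 1 panel per library, with members of 3 or 4 markers in grey. In every library the tallest bar is at 7 markers, with 14, 23, 27 and 39 barcodes, and Hyperoxia pnd60 has a further group of 29 barcodes at 3 markers.

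Many members with 3 or 4 markers held counts of other cell types, as did some with 5 or more. The 6 club cell markers, secretory genes of the conducting airway such as Scgb1a1, summed to 14740, 82, 93242 and 83059 counts in the members with 3 or 4 markers, and to 3, 13, 75 and 57 in those with 5 or more. In the members with 3 or 4 markers these genes made up 201045, 1761, 303273 and 171452 counts per 1000000 (CPM). Of these members, 2, 2, 13 and 16 held either 20 or more secretoglobin counts or a count of the ciliated cell factor Foxj1, and 3, 0, 6 and 21 held Ptprc. Of the 9, 3, 18 and 36, 5, 1, 2 and 1 held none of the 3, which was the larger part in Air pnd7 alone, and they are described as barcodes that met the rule rather than as type I cells. By the same criterion, 13, 21, 26 and 36 of the 21, 27, 33 and 46 members with 5 or more markers held none.

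The type I genes outside the rule were also compared between these sets. The 12 listed, of which Pdpn was at 0, together reached 15913, 21390.2, 37147 and 38173 CPM in the members with 5 or more markers, against 2196, 10741, 4612 and 5538 CPM in those with 3 or 4. Vegfa was found in 90.5%, 100%, 100% and 95.7% of the members with 5 or more markers. Igfbp2, an insulin-like growth factor binding protein of mature type I cells, was found in 81.0%, 85.2%, 90.9% and 89.1% of them, and after each cell was thinned to 1000 counts in 57.1%, 70.4%, 66.7% and 76.1%. In immune cells of the same libraries, which serve as a measure of free RNA, Igfbp2 was found in 1.95%, 1.01%, 0.962% and 1.28% before thinning and in 0.584%, 0%, 0.275% and 0.702% after it. The median depth of these immune cells was 5738.5, 6917, 2014 and 2165 counts, and that of the members with 5 or more markers was 13922, 9482, 5568 and 3445.5.

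The members with 5 or more markers were set beside type II cells of the same libraries. These were barcodes with 2% or more of their counts in Sftpc, 2 or more of the genes Lamp3, Abca3, Slc34a2 and Etv5, and fewer than 3 rule markers, so that none of these genes can show a difference between the sets. Lamp3, a lamellar body protein, had 0, 0, 1 and 0 counts in the type I members. Vegfa was at 98.4, 112, 182 and 230.3 CPM in type II cells and at 2219.5, 2611.5, 8482 and 8798 CPM in these members. The log2 ratio of the members over type II cells for Vegfa was 4.50 (4.21 to 4.79) with its 95% counting interval in Air pnd7 and 5.54 (5.36 to 5.73) in Air pnd60. Krt8, a keratin of the state between type II and type I cells, was at 379.7, 484, 578 and 384 CPM in these members and at 190.4, 202, 298 and 257 CPM in type II cells.

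Counts of other cell types remained in some members with 5 or more markers. Ptprc was found in 8, 6, 6 and 10 of them, and Tyrobp, a signalling adaptor of myeloid cells, in 9, 5, 3 and 3. The 13 leukocyte markers summed to 1449, 489.8, 1039 and 859.5 CPM, with Tyrobp, Tyrobp, Csf1r and Csf1r as the most abundant. Endothelial markers summed to 73.0, 25.2, 60.8 and 75.8 CPM and mesenchymal markers to 62.1, 28.0, 60.8 and 50.6 CPM. The rule had already left out barcodes with a count of Cdh5 or Col1a1, which belong to these lists, so the low sums are no separate check. The ciliated list reached 559, 523, 2261 and 1779.7 CPM, of which 548, 521, 1835 and 1765 CPM was Tppp3, a tubulin-binding protein, while Foxj1 was found in 0, 0, 2 and 0 members. The numbers of genes past 2-fold are therefore given below for all members, for those with 5 or more markers, and for a stricter set. The stricter set was the 11, 18, 25 and 31 members with 5 or more markers that also had 0 counts of Ptprc, Pecam1, Col1a2 and Foxj1. They are called the members without counts of other classes. Genes and gene lists are given for the members with 5 or more markers unless stated.

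**Figure D2:**
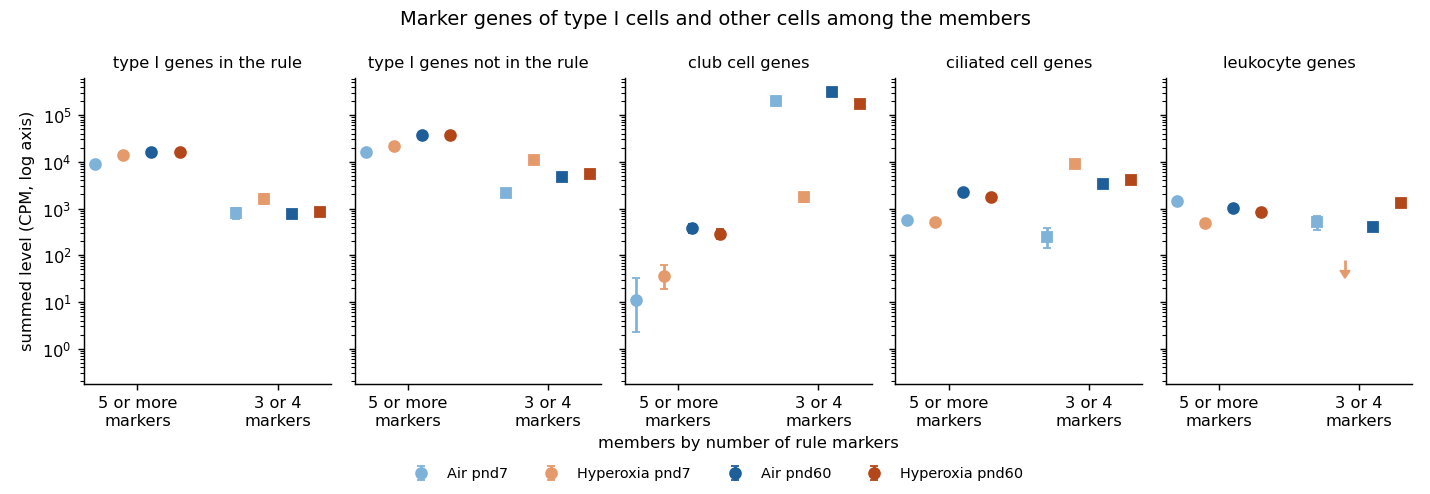
Summed level of 5 marker lists (y axis, CPM, log axis) in members with 5 or more markers (circles) and with 3 or 4 markers (squares), coloured by library; bars are 95% Poisson intervals of the counts and an arrow is the upper limit of a sum of 0. Club cell genes lie between 10.95 and 380.2 CPM in the circles and between 1761 and 303273 CPM in the squares.

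The first comparison asked how type I cells differed between hyperoxia and air at pnd7, after recovery in room air. In all members, 42 of 1308 genes with 100 or more counts in both libraries together were at least 2-fold higher in hyperoxia (3.21%) and 67 were at least 2-fold lower (5.12%). In members with 5 or more markers these were 21 of 1087 (1.93%) and 53 (4.88%), and in those without counts of other classes 7 of 386 (1.81%) and 2 (0.518%). The median log2 ratio of CPM over all genes compared was 0.15, 0.06 and -0.07 in the 3 sets. In type II cells of the same libraries, 10 of 3140 genes (0.318%) were higher and 13 (0.414%) lower. The balance between directions in all members turned with the mean of CPM per cell in place of summed counts, under which 85 genes were higher and 76 lower.

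The rule genes, which chose the members and are given as a description only, differed by less than 2-fold between the libraries at pnd7 in members with 5 or more markers. Hopx was at 2581 and 4839.5 CPM in Air pnd7 and Hyperoxia pnd7, a log2 ratio of 0.91 (0.78 to 1.04) with its 95% counting interval. Rtkn2 was at 716 and 1251 CPM with a log2 ratio of 0.81 (0.56 to 1.06), and the kinase anchoring protein Akap5 was at 1438 and 2371 CPM with 0.72 (0.55 to 0.90). Aqp5, the apical water channel, was at 1267 and 1993 CPM with 0.65 (0.47 to 0.84), and the basement membrane collagen Col4a3 was at 905 and 1372 CPM with 0.60 (0.38 to 0.83). The median over the 7 rule genes compared was 0.65, and none was 2-fold higher or lower. The differences were smallest for the chloride channel protein Clic3, with a log2 ratio of 0.22 (0.00 to 0.45), and for the proteoglycan Spock2, with 0.17 (-0.07 to 0.41).

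Genes that the rule did not use are given next, and here and below Col4a3, Aqp5 and Hopx are left out of the basement membrane, transport and transcription factor lists. None of the 11 type I genes outside the rule was 2-fold higher or lower, beside 1.93% and 4.88% of all genes, and their median log2 ratio was 0.41. Sec14l3, a lipid transfer protein, was at 913 and 1408 CPM, the tight junction protein Cldn18 at 3015 and 4179 CPM, and the membrane protein Emp2 at 2537 and 3353 CPM in air and hyperoxia. Vegfa was at 2219.5 and 2611.5 CPM, a log2 ratio of 0.23 (0.09 to 0.38). Of 14 basement membrane genes, none was past 2-fold, with a median of 0.60. The medians of the junction (8 genes), caveola (9), ion and water transport (6) and signalling ligand (9) lists were 0.31, 0.30, 0.40 and 0.34, again with no gene past 2-fold.

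These differences were smaller in the members without counts of other cell classes. There the median log2 ratio was 0.32 over the rule genes and 0.01 over the other type I genes, beside -0.07 over all genes. It was 0.24 over 14 basement membrane genes. Over the junction (3 genes), caveola (8), transport (4) and ligand (5) lists it was -0.0008, -0.15, -0.07 and -0.13, near that of all genes. Fewer genes of each of these lists were compared than in the wider set. Hopx was at 4142 and 5180.4 CPM in 11 air and 18 hyperoxia cells (0.32, 0.15 to 0.50), and Cldn18 was at 4806 and 4803 CPM (0.00, -0.17 to 0.17). Leukocyte genes were lower in hyperoxia in the wider set of members with 5 or more markers, and their part in the differences was not tested. The set without counts of other classes was chosen with Ptprc at 0, so it is no separate check. Ptprc was at 274 and 81.2 CPM in air and hyperoxia (-1.75, -2.43 to -1.12), and Tyrobp at 464 and 202 CPM (-1.20, -1.64 to -0.77). The whole leukocyte list was at 1449 and 489.8 CPM, with 2 and 4 of its 13 genes at 0.

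Several of the largest ratios at pnd7 came from a single barcode. Mcpt4, Cma1, Tpsb2 and Cpa3, proteases of mast cells, had 608, 446, 303 and 253 counts in the members with 5 or more markers of Air pnd7, all in 1 barcode, and none in Hyperoxia pnd7. That barcode held 5 rule markers, 3 counts of Hopx and 21 counts of Tyrobp. The chemokine Ccl4 and the interferon-induced Ifitm1 had 179 and 173 counts in 1 Hyperoxia pnd7 member, which held 7 rule markers, 63 counts of Hopx and 25 counts of Tyrobp. Top2a, a topoisomerase of dividing cells, had 98 and 2 counts in 3 and 2 members of Air pnd7 and Hyperoxia pnd7 (-5.998, -9.06 to -4.11). Neither Top2a nor the proliferation marker Mki67 was found in the 12, 21, 27 and 36 members with 5 or more markers that lacked both Ptprc and Tyrobp.

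Other genes past 2-fold at pnd7 were found in several barcodes. The small nuclear RNA Rn7sk had 52 and 273 counts in 13 and 23 members of air and hyperoxia, of which 112 were in 1 hyperoxia barcode (2.01, 1.58 to 2.47). C430049B03Rik, a non-coding RNA, was found in 13 and 25 members (1.54, 1.05 to 2.06), and the membrane protein gene Tmem37 in 11 and 21 (1.40, 0.84 to 2.00). The adhesion protein Nectin3 was found in 15 and 23 (1.35, 0.89 to 1.83) and the folate enzyme Mthfd1 in 18 and 25 (1.33, 0.97 to 1.71). Msln, the glycoprotein mesothelin, was at 168 and 349.9 CPM (1.06, 0.56 to 1.58), and at 368 and 445 CPM in the members that held neither Ptprc nor Tyrobp. Among 8 transcription factors, Nfib was past 2-fold upward (1.04, 0.41 to 1.71), and Klf4 (-1.04, -1.63 to -0.47) and Cebpb (-1.33, -1.69 to -0.99) were past 2-fold downward, beside 1.93% and 4.88% of all genes.

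In all members the pnd7 comparison also held the airway barcodes of the air library. Scgb1a1 had 12471 and 26 counts in air and hyperoxia, 12016 of the former in 1 barcode (-9.12, -9.74 to -8.57). Scgb3a2, another secretoglobin, had 2165 and 6 counts (-8.71, -10.16 to -7.59). In the members with 5 or more markers neither gene had enough counts to be compared. Hba-a2, a hemoglobin chain, had 351 and 44 counts in 26 and 20 members (-3.21, -3.70 to -2.76), and all 4 hemoglobin genes compared were 2-fold lower in hyperoxia in both sets, beside 5.12% and 4.88% of all genes. In this set Hopx (1.07, 0.94 to 1.19), Sec14l3 (1.35, 1.16 to 1.54), the laminin chain Lama5 (1.04, 0.57 to 1.53) and the ligand Bmp4 (1.08, 0.55 to 1.63) were past 2-fold upward, with list medians of 0.81 for the rule genes and 0.58 for the other type I genes.

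Senescence genes, on which the study centred, were sparse in type I members. The cell cycle inhibitor Cdkn1a (p21) had 8, 17, 2 and 2 counts in the members with 5 or more markers, or 29.2, 47.6, 10.1 and 10.1 CPM, and the Poisson intervals of Air pnd7 (12.6 to 57.5 CPM) and Hyperoxia pnd7 (27.7 to 76.2 CPM) overlapped. Cdkn2a (p16) had 0, 4, 0 and 0 counts. Mdm2, a p53 target, had 14, 44, 29 and 17 counts, or 51.1, 123, 147 and 86.0 CPM, with intervals of 27.9 to 85.7 CPM in Air pnd7 and 89.5 to 165 CPM in Hyperoxia pnd7 that did not overlap. In the members that held neither Ptprc nor Tyrobp it had 7 and 21 counts, or 83.1 and 103 CPM. Lmnb1, the nuclear lamin that is lost in senescent cells, had 22, 8, 1 and 1 counts, or 80.3, 22.4, 5.07 and 5.06 CPM. Its intervals at pnd7 (50.3 to 122 CPM and 9.67 to 44.1 CPM) did not overlap either, and its counts lay in 7 and 1 cells of air and hyperoxia. In the same members Ptprc had 75 and 29 counts, Tyrobp 127 and 72, Top2a 98 and 2 and Mki67 62 and 19, and of the 22 and 8 Lmnb1 counts 3 and 0 were in members that held neither Ptprc nor Tyrobp. The part of these genes in the difference was not tested, and the intervals cover counting error only. Cdkn1a, Cdkn2a, Mdm2 and Lmnb1 were taken for the study's question, outside the naming rule and after their values were seen, and none reached 100 counts in a pair of libraries. Of the 20 listed p53 and senescence genes only B2m, a subunit of MHC class I, could be compared at pnd7, at 580.4 and 286 CPM (-1.02, -1.40 to -0.66).

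The second comparison asked what differed after the exposure at pnd60. In all members, 63 of 2146 genes were at least 2-fold higher in hyperoxia (2.94%) and 9 lower (0.419%). In members with 5 or more markers these were 3 of 616 (0.487%) and 1 (0.162%), and in those without counts of other classes 0 of 328 (0%) in each direction. The median log2 ratio over all genes was 0.10, 0.05 and 0.04. In type II cells of the same libraries, 4 of 5197 genes (0.077%) were higher and 7 (0.135%) lower. With the mean of CPM per cell in all members, 74 genes were higher and 33 lower. In the members with Epcam and without counts of other classes, 15 in air and 14 in hyperoxia, 282 genes were compared. Of these 28 were higher and 67 lower, a larger share in each direction than in all members, and the median over all genes there was -0.47.

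At pnd60 no type I gene was past 2-fold between the air and hyperoxia libraries in the members with 5 or more markers. This is near the share of all 616 genes compared in that set, of which 0.487% were higher and 0.162% lower. The rule genes, which chose the members, are given as a description only. Hopx was at 6312 and 5870.1 CPM (-0.10, -0.22 to 0.01) and Rtkn2 at 2266 and 2568 CPM (0.18, -0.01 to 0.37). Akap5 was at 1541 and 1406 CPM (-0.13, -0.37 to 0.11) and Aqp5 at 1861 and 1583 CPM (-0.23, -0.46 to -0.01). The rule genes had a median of -0.08 and the 11 others of 0.01, with none past 2-fold. In all members the medians were -0.48 and -0.29. Among the other type I genes, Vegfa was at 8482 and 8798 CPM, Cldn18 at 4264 and 4697 CPM, Emp2 at 4558 and 4601 CPM and Igfbp2 at 2139.5 and 2103 CPM. The 11 basement membrane genes had a median of 0.19, the caveola genes of 0.21 and the transcription factors of 0.05, also with none past 2-fold. The spread between mice behind these values is unknown.

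The 4 genes past 2-fold in that set were mixed in kind. Cd74, the invariant chain of MHC class II, had 71 and 352 counts in 14 and 16 members of air and hyperoxia, 219 of the latter in 1 barcode (2.31, 1.93 to 2.69). The ribosomal protein gene Rps23 had 49 and 102 counts (1.05, 0.55 to 1.58) and Tmsb10 had 47 and 97 counts in 18 and 22 members (1.04, 0.52 to 1.58). Cbr2, a carbonyl reductase of club cells, had 156 and 3 counts, 151 of the former in 1 barcode (-5.70, -7.998 to -4.13).

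In all members the highest ratios at pnd60 were of the surfactant gene Sftpc (4.20, 3.79 to 4.65), of Car4 (3.00), of the myeloid genes Clec7a (2.54), Ear2 (2.44), Cd74 (2.42) and Lyz2 (2.28), and of Id1 (2.33) and Lpl (2.23). Of the Sftpc counts in Hyperoxia pnd60, 777 of 1194 were in 1 barcode. The lowest were of the airway genes Bpifa1 (-5.98), Reg3g (-1.88) and Scgb3a1 (-1.68). All 3681 Bpifa1 counts in Air pnd60 were in 1 barcode. Clec7a, Ear2 and Lyz2 had too few counts in those with 5 or more to be compared.

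**Figure D3:**
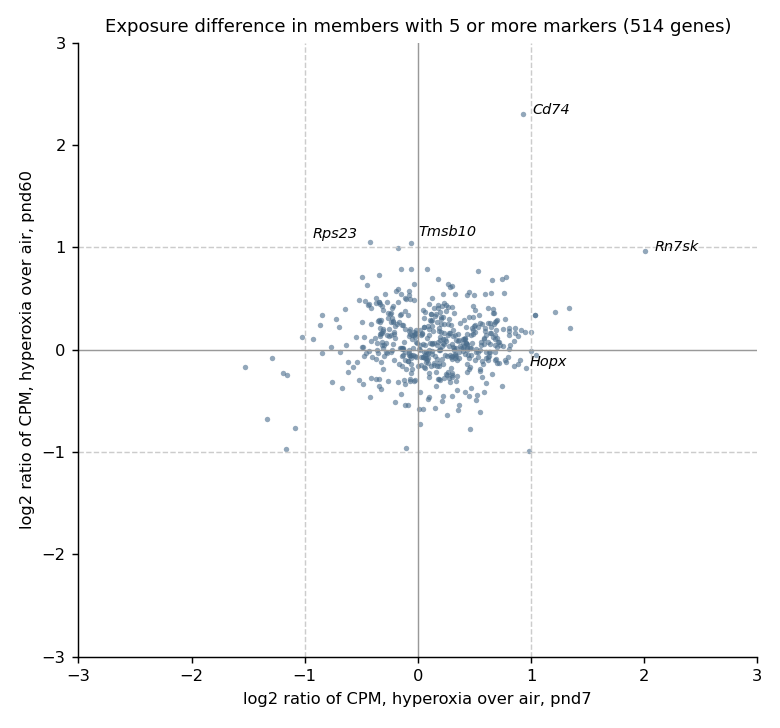
Log2 ratio of CPM in hyperoxia over air at pnd7 (x axis) and at pnd60 (y axis) for the 514 genes compared at both ages in members with 5 or more markers; dashed lines mark 2-fold and a gene with 0 counts in a library is placed at 3 counts. Hopx lies to the right of 0 on the x axis and near 0 on the y axis. Past 2-fold are 7 genes upward and 8 downward at pnd7, and 3 and 0 at pnd60, with no gene past it at both ages.

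The exposure differences at pnd7 and at pnd60, which shared no library, were set side by side over 514 genes in the members with 5 or more markers. Of these genes 7 were past 2-fold higher and 8 lower at pnd7, and 3 and 0 at pnd60. No gene was past 2-fold in the same or in opposite directions at both ages, which so few calls could give without any relation. Across these genes, which are not independent, the Pearson correlation was 0.08, against -0.29 across 1156 genes in all members, as a description. In all members, of 1156 genes, 3 were higher at both ages (Cd74, Cdkn1c and Cst3) and 14 were past 2-fold in opposite directions. In Hyperoxia pnd7 most counts of Cd74 and Cst3 were in 1 barcode, with 749 of 843 for Cd74 and 1407 of 1555 for the protease inhibitor Cst3. In Hyperoxia pnd60 the highest barcode held 328 of 1008 and 302 of 632. With 4 or more markers the pnd7 ratio of Cdkn1c was -0.067 on too few counts to be compared, and in members with 5 or more markers that held neither Ptprc nor Tyrobp Cd74 was at 273, 225, 276 and 301 CPM in the 4 libraries.

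The remaining comparisons asked how type I cells differed between pnd60 and pnd7, in air and after hyperoxia. In all members 174 of 1381 genes were at least 2-fold higher at pnd60 in air (12.6%) and 303 lower (21.9%), and after hyperoxia 221 of 2044 were higher (10.8%) and 308 lower (15.1%). In members with 5 or more markers, 152 of 791 were higher (19.2%) and 234 lower (29.6%) in air, and 138 of 943 higher (14.6%) and 221 lower (23.4%) after hyperoxia. In those without counts of other classes, 74 of 317 (23.3%) and 94 (29.7%) were higher and lower in air, and 79 of 441 (17.9%) and 132 (29.9%) after hyperoxia. The median log2 ratio over all genes was -0.25, -0.15 and 0.02 in air and -0.16, -0.15 and -0.12 after hyperoxia in the 3 sets. Type II cells of the same libraries had 432 of 4205 genes higher (10.3%) and 126 lower (3%) in air, and 667 of 4302 higher (15.5%) and 188 lower (4.37%) after hyperoxia. With the mean of CPM per cell in all members, 254 genes were higher and 260 lower in air, and 304 were higher and 222 lower after hyperoxia, so that the balance after hyperoxia turned under this setting.

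The age differences in air and after hyperoxia, which shared no library, lay close together in the members with 5 or more markers. Of 742 genes compared in both, 102 were higher at pnd60 in both and 157 lower in both, and none was past 2-fold in opposite directions. The former were 69.4% of the 147 higher in air and 87.9% of the 116 higher after hyperoxia. The latter were 77.0% of the 204 lower in air and 83.5% of the 188 lower after hyperoxia. The Pearson correlation across these genes, which are not independent, was 0.92, against 0.67 across 1356 genes in all members, where 12 were past 2-fold in opposite directions.

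**Figure D4:**
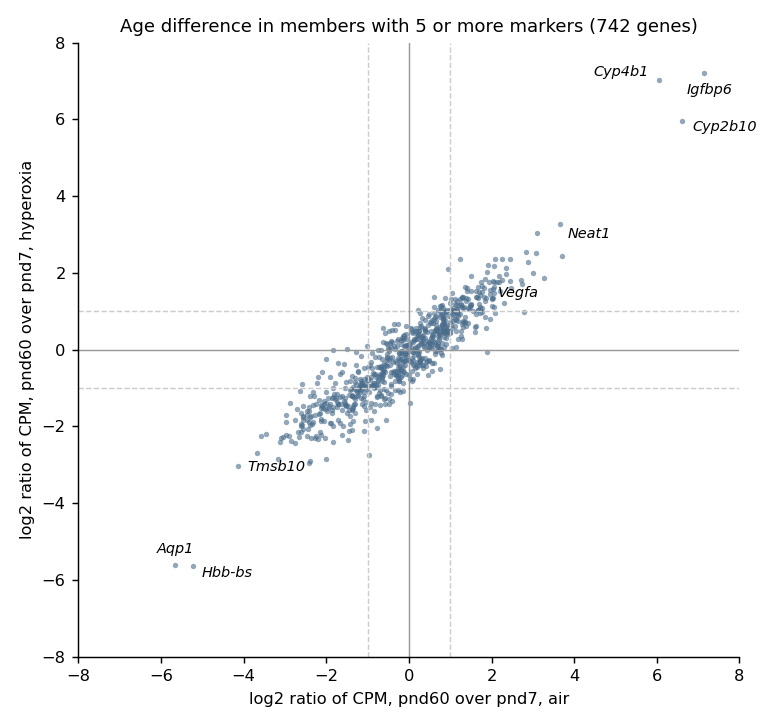
Log2 ratio of CPM at pnd60 over pnd7 in air (x axis) and after hyperoxia (y axis) for the 742 genes compared in both in members with 5 or more markers; dashed lines mark 2-fold and a gene with 0 counts in a library is placed at 3 counts. The genes lie along the diagonal, with Igfbp6, Cyp4b1 and Cyp2b10 at the upper right, Aqp1 and Hbb-bs at the lower left, and none past 2-fold in opposite directions.

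Genes nearly absent at pnd7 were prominent at pnd60. Igfbp6 was at 7.30, 5.598, 1039 and 834 CPM and was found in 2, 2, 30 and 38 of the members with 5 or more markers. Its log2 ratio was 7.15 (5.28 to 10.21) in air and 7.22 (5.34 to 10.28) after hyperoxia. In type II cells of the same libraries Igfbp6 was past 2-fold upward with age in both comparisons as well. Cyp2b10, a cytochrome P450 of xenobiotic metabolism, had 0, 7, 211 and 243 counts, and the 7 of Hyperoxia pnd7 were in 1 barcode. Its log2 ratio was at least 6.61 in air, with 3 counts in the library set in place of 0, and 5.97 (4.91 to 7.30) after hyperoxia. Cyp4b1 had 0, 2, 143 and 145 counts, a log2 ratio of at least 6.05 in air and 7.03 (5.15 to 10.09) after hyperoxia. In all 3 genes both pnd60 libraries were high and both pnd7 libraries low, with no overlap.

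The long non-coding RNA Neat1, a scaffold of nuclear paraspeckles, was at 486, 624, 6149.8 and 6067 CPM, a log2 ratio of 3.66 (3.40 to 3.93) in air and 3.28 (3.07 to 3.49) after hyperoxia. Selenbp1, a selenium-binding protein, gave 3.72 (2.89 to 4.67) and 2.44 (1.90 to 3.00), and the amino acid transporter Slc43a2 gave 3.09 (2.29 to 3.98) and 3.03 (2.30 to 3.83). Scd2, a fatty acid desaturase, was at 522, 890.1, 2889.8 and 2695 CPM, again with both pnd60 libraries above both pnd7 libraries. The peroxiredoxin Prdx6 was at 705, 1030.0, 2509.6 and 2503 CPM, and superoxide dismutase Sod1 at 325, 263, 1212 and 1067 CPM. They were the genes past 2-fold upward among 6 antioxidant genes compared in air, where Txn1 (-1.61) and Mt1 (-3.15) were past 2-fold downward, and among 5 after hyperoxia, with Txn1 (-1.98) downward. Of all genes, 19.2% were upward and 29.6% downward in air, and 14.6% and 23.4% after hyperoxia. The list medians were -0.91 and -0.10, beside -0.15 and -0.15 over all genes. They were above 0 in all members (0.68 and 0.53 over 12 genes each) and in the members without counts of other classes (1.54 over 3 genes and 0.47 over 4). In type II cells 4 of 16 antioxidant genes were past 2-fold upward in air and 4 of 15 after hyperoxia. Sod1 was among them in both and Prdx6 in neither, and Mt1 and Mt2 were downward in both.

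Type I genes were among those higher at pnd60 in the members with 5 or more markers. Of the 11 outside the rule, 7 were past 2-fold in air (Sec14l3, Clic5, Gprc5a, Limch1, Lmo7, Cav1 and Vegfa), with a list median of 1.35, beside 19.2% of all genes, and 5 after hyperoxia (Sec14l3, Gprc5a, Limch1, Cav1 and Vegfa), with a median of 0.76, beside 14.6% of all genes. In type II cells of the same libraries 3 of 9 genes of this list (Clic5, Limch1 and Lmo7) were past 2-fold upward in air and these with Sec14l3 and Vegfa after hyperoxia. The list medians there were 0.79 and 1.04, and 10.3% and 15.5% of all genes in type II cells were past 2-fold upward. Vegfa was at 2219.5, 2611.5, 8482 and 8798 CPM, with log2 ratios of 1.93 (1.80 to 2.07) in air and 1.75 (1.64 to 1.87) after hyperoxia. Sec14l3 was at 913, 1408, 4228 and 4039.8 CPM, with 2.21 (2.01 to 2.42) and 1.52 (1.36 to 1.68). The receptor Gprc5a was at 1124, 1386, 3143 and 3013 CPM, and the actin regulator Limch1 at 526, 699.8, 1795 and 2199 CPM. Both pnd60 libraries thus stood above both pnd7 libraries in these 4 genes. Igfbp2 (0.26 in air and -0.30 after hyperoxia), Cldn18 (0.50 and 0.17) and the keratin Krt7 (0.49 and 0.05) were within 2-fold. In all members the list median was 0.38 in air, with Sec14l3 and Cav1 past 2-fold upward, and -0.58 after hyperoxia, with none upward and Cldn18, Igfbp2 and Krt7 downward.

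The rule genes were less uniform. Rtkn2 was past 2-fold in both comparisons, at 1.66 (1.42 to 1.91) in air and 1.04 (0.85 to 1.22) after hyperoxia, while Hopx was at 1.29 (1.16 to 1.43) in air and 0.28 (0.17 to 0.39) after hyperoxia. Akap5 was at 1438, 2371, 1541 and 1406 CPM, highest in Hyperoxia pnd7, so that its log2 ratio was 0.10 (-0.12 to 0.32) in air and -0.75 (-0.95 to -0.56) after hyperoxia. Spock2, the proteoglycan, was at 872, 982, 1480.4 and 1785 CPM, and Clic3 at 993, 1156, 1298 and 1618 CPM. The median over the 7 genes was 0.73 in air and 0.28 after hyperoxia. These genes also chose the members, and in all members, with the barcodes of 3 or 4 markers included, the medians were -0.28 and -1.20.

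**Figure D5:**
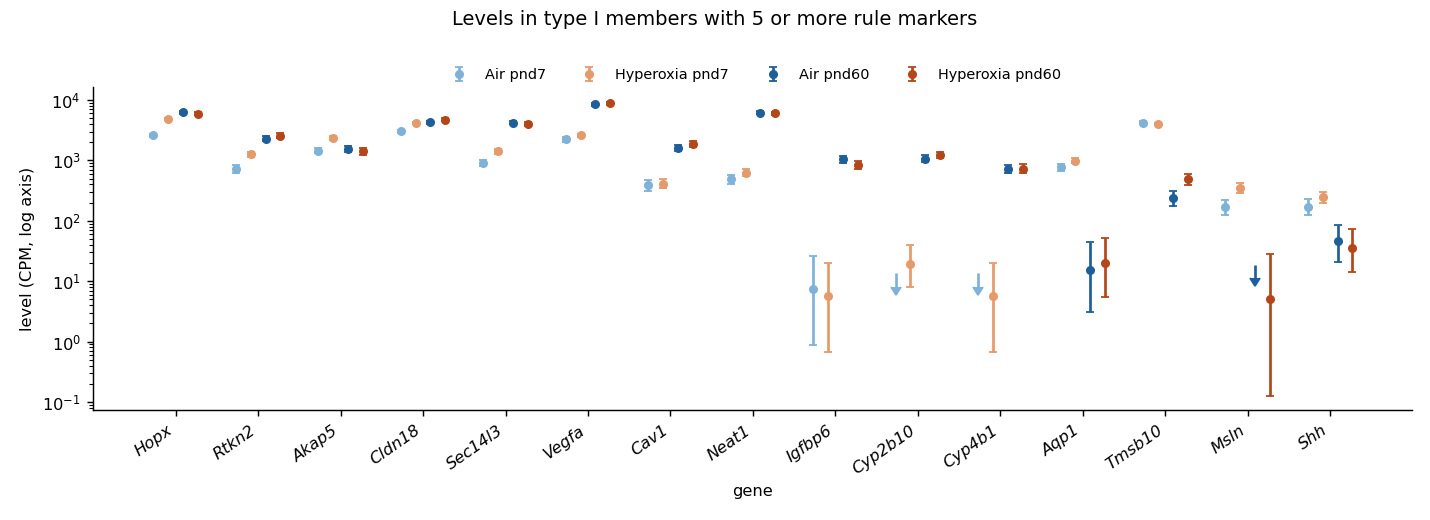
Level (y axis, CPM, log axis) of 15 genes in the members with 5 or more markers of the 4 libraries, with 95% Poisson intervals of the counts; an arrow is the upper limit of a count of 0. Vegfa, Neat1, Igfbp6, Cyp2b10 and Cyp4b1 are higher in both pnd60 libraries, and Aqp1, Tmsb10, Msln and Shh in both pnd7 libraries.

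Membrane, junction and transport genes were next set beside all genes compared, of which 19.2% were past 2-fold upward in air and 14.6% after hyperoxia. The caveola proteins Cav1, Cav2 and Cavin2 were past 2-fold in air of 9 genes compared (median 0.85), and these with Ehd2 after hyperoxia (median 0.51). Cav1 was at 387, 411, 1602 and 1876 CPM and Cavin2 at 405, 655, 1830.2 and 2229.7 CPM. Of 6 junction and adhesion genes compared in air, the junctional molecule F11r, the cadherin Cdh1 and the integrin Itga3 (2.05, 1.55 to 2.58) were past 2-fold, and of 7 after hyperoxia Itga3 alone (1.64, 1.26 to 2.03), a share near that of all genes, with medians of 1.04 and 0.84. The epithelial sodium channel subunits Scnn1a and Scnn1b, which clear fluid from the airspace, were past 2-fold in both comparisons. Scnn1a was at 314, 423, 1374 and 1441 CPM, and Scnn1b gave log2 ratios of 2.01 (1.45 to 2.59) and 1.13 (0.70 to 1.57). With the transporter Slc6a14 and the chloride channel protein Clic5 they made 4 of 7 transport genes higher in air (median 1.17), and without Clic5 3 of 7 after hyperoxia (median 0.73), with Aqp1 past 2-fold downward in both. In type II cells Cav2, Cavin1 and Ehd2 of 7 caveola genes were upward in air (median 0.95), and Ehd2 and Ahnak of 6 after hyperoxia (0.48). Of the transport list there, Aqp5 included, Aqp5, Scnn1a and Clic5 of 7 were upward in air (0.77). After hyperoxia these and Slc6a14 of 8 were (0.91), and Cftr was downward in both. Of all type II genes 10.3% and 15.5% were upward.

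Regulators were set beside all genes, of which 19.2% were past 2-fold upward and 29.6% downward in air, and 14.6% and 23.4% after hyperoxia. The Hippo pathway factor Tead1 was at 270.1, 397, 1055 and 1092 CPM, with log2 ratios of 1.96 (1.58 to 2.37) in air and 1.46 (1.15 to 1.77) after hyperoxia. Nfib, a nuclear factor of lung maturation, was at 106, 218, 522 and 506 CPM, with 2.30 (1.70 to 2.95) and 1.21 (0.77 to 1.66). They were the 2 of 5 transcription factors past 2-fold upward in air (median 0.95), with Cebpb downward, and Gata6, Tead1 and Nfib of 8 were after hyperoxia (median 0.46). Of 4 targets of YAP and TAZ, which act with TEAD factors, Amotl2 was past 2-fold upward (1.85 and 1.83) and the tissue factor gene F3 downward (-1.10 and -2.11) in both comparisons, and the medians were 0.25 and 0.10.

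Genes past 2-fold lower at pnd60 in both comparisons included Aqp1 and Tmsb10. Aqp1, best known from capillary endothelium, was at 767, 991, 15.2 and 20.2 CPM and was found in 19, 26, 3 and 4 of the members with 5 or more markers. Its log2 ratio was -5.66 (-7.94 to -4.09) in air and -5.61 (-7.50 to -4.25) after hyperoxia. The endothelial list stood at 73.0, 25.2, 60.8 and 75.8 CPM with 2, 5, 4 and 4 of its 8 genes at 0. That list holds Cdh5, which the rule required at 0, so its level is no separate check, and the part of endothelial RNA was not tested. Tmsb10 was at 4165, 3989, 238 and 490.4 CPM, with log2 ratios of -4.13 (-4.58 to -3.71) and -3.02 (-3.34 to -2.73). Msln was found in 12, 21, 0 and 1 members, low in both pnd60 libraries, whereas Upk3b, another mesothelial marker, had 0 counts in every library. The epithelial protein S100a14 had 36, 114, 4 and 3 counts and gave -4.39 (-6.69 to -2.81) after hyperoxia. The hedgehog ligand Shh was at 172, 246, 45.6 and 35.4 CPM, with too few counts at pnd60 to be compared.

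The basement membrane list was mixed, beside 19.2% of all genes past 2-fold upward and 29.6% downward in air, and 14.6% and 23.4% after hyperoxia. Its median was 0.67 over 12 genes in air and 0.21 over 14 after hyperoxia. Timp3, a matrix-bound metalloprotease inhibitor, was past 2-fold upward in both, at 982, 1299, 2778 and 2902 CPM, and the collagen chain Col4a2 in air (1.26). The laminin chain Lamc1 was past 2-fold downward in both (-1.04 and -1.57), and Lama5 after hyperoxia (-1.35). In the members without counts of other classes, 10 genes were compared in air and 12 after hyperoxia, with Timp3 upward and none downward in each. The matrix metalloprotease Mmp14 was at 299, 375, 117 and 131 CPM, lower in both pnd60 libraries. In all members 11 of 14 basement membrane genes were past 2-fold downward after hyperoxia, beside 15.1% of all genes, with the 36 Hyperoxia pnd60 barcodes of 3 or 4 markers included.

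Blood and immediate early genes were also compared between the ages. Hbb-bs, an adult hemoglobin chain, had 418, 271, 8 and 3 counts in the members with 5 or more markers, and the 2 erythroid genes compared in air, Hba-a1 and Hbb-bs, were both past 2-fold downward. The immediate early gene Fos was at 989, 591, 127 and 182 CPM, and Jun at 869, 876, 492 and 329 CPM. Of 6 immediate early genes compared in air Fos was past 2-fold downward, and of 7 after hyperoxia Fos, Fosb and Jun were, with Ier3 upward, beside 29.6% and 23.4% of all genes downward, and the medians were -0.32 and -0.48. In the members without counts of other classes 1 gene of this list was compared in air, the phosphatase Dusp1, which was past 2-fold upward (1.92, 1.21 to 2.71), and the list sum there was 1508 CPM at pnd7 and 2510 CPM at pnd60. After hyperoxia 3 were compared in that set, with Ier3 upward and Jun downward, and the sum was 3468 CPM at pnd7 and 1943 CPM at pnd60. For hyperoxia against air at pnd7, none of 9 immediate early genes was past 2-fold in the members with 5 or more markers, with a median of -0.07. In the members without counts of other classes both genes compared, Jun and Dusp1, were past 2-fold upward (2.39 and 1.20), where 1.81% of all genes were. Xist, the X inactivation RNA, was at 544, 244, 456 and 384 CPM, lowest in Hyperoxia pnd7, with a log2 ratio against air of -1.16 (-1.56 to -0.77). The part of erythroid RNA, immediate early genes and Xist in the other results was not tested.

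The remaining lists held few genes with enough counts in the members with 5 or more markers. With age, 19.2% of all genes were past 2-fold upward and 29.6% downward in air, and 14.6% and 23.4% after hyperoxia. Of the ligands, Vegfa alone was past 2-fold with age in air and after hyperoxia, of 8 and 9 compared, with medians of 0.80 and 0.49. Of the genes of insulin-like growth factor binding, 4 were compared in each age comparison, with Igfbp6 past 2-fold upward in both and Igfbp7 downward after hyperoxia (-1.26, -1.46 to -1.08), and the list median was 0.54 over 3 genes at pnd7 and 0.00 over 4 at pnd60. Genes of the transitional state had medians of 0.35 at pnd7 and -0.28 at pnd60 over 6 genes each, and of 0.45 over 5 and -0.33 over 7 with age, where Lgals3, a galectin also made by macrophages, was past 2-fold downward in air (-1.05). Glycolysis and hypoxia genes had medians of 0.02 over 5 genes, -0.01 over 4, 0.20 over 4 and -0.15 over 5. With age Gapdh, a glycolytic enzyme, was past 2-fold downward in air (-1.44), and Vegfa, also of this list, upward in air and after hyperoxia.

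Some lists were left with 1 to 3 genes over all comparisons. Of the surfactant list this was Sftpc, a gene of the rule. Of lipid synthesis it was Scd2, of secreted senescence factors Mmp14, of the X and Y genes Xist, and of the ciliated list Tppp3, at 1.74 in air and 1.76 after hyperoxia with age. Of the antigen presentation list they were B2m and Cd74, and of the proliferation list Top2a and Stmn1, a tubulin regulator that was past 2-fold downward with hyperoxia at pnd7 (-1.99, -2.47 to -1.53, but 0.26 with 8 and 18 counts in the members without counts of other classes) and with age in air (-4.24, -5.71 to -3.09). Of the mesothelial list they were Msln and the keratin Krt19, and of the leukocyte list Ptprc, Tyrobp and the receptor Csf1r. Csf1r was past 2-fold upward with age in air (1.25, 0.65 to 1.87) and after hyperoxia (2.37, 1.73 to 3.04). Tyrobp was past 2-fold downward with age in air, where the median of the 2 leukocyte genes compared was -0.90. Of the endothelial and mesenchymal lists no gene was compared, and the club list had 1 gene compared at pnd60, with a log2 ratio of -0.16.

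The promoter windows of the genes that differed with age in both comparisons were searched for the same 3 motifs. Of the 102 genes higher in both, 73 had a RefSeq window, and 12 of these (16.4%) held the TEAD core, 2 (2.74%) the NKX2-1 core and 8 (10.96%) the TATA box. Of the 157 lower in both, 119 had a window, with 16 (13.4%), 2 (1.68%) and 14 (11.8%). Among all 32851 windows of this length the shares were 14.7%, 3.06% and 13.6%. These matches describe letters in the windows and are not binding sites.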

How the data were processed

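Whole-lung single-cell libraries (10x Genomics 3' chemistry) were made by the authors from mice in room air or hyperoxia, and a further library from C12FDG-sorted cells pooled from 3 hyperoxia mice. The authors deposited unnormalized counts of molecules per gene and barcode, made with Cell Ranger on mm10, and the submitters' processing notes also name Seurat 3.2.1. No cell annotation was used here, so type I, type II and immune cells were rebuilt from genes, and names in the study may differ. The members and the 28 gene lists were chosen with earlier results of these data known.

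Barcodes were kept with over 700 and under 8000 genes and under 5% mitochondrial counts; the matrices held 2 mitochondrial features. Type II cells had 2% or more Sftpc, 2 or more of 4 lamellar body and transport genes (Lamp3, Abca3, Slc34a2 and Etv5), under 3 rule markers and no Cdh5 or Col1a1. Immune cells had Ptprc, no Epcam, under 3 rule markers and under 2% Sftpc. For each library, the counts of its cells of 1 class were added and scaled to 1000000 (CPM, with exact Poisson intervals). Ratios of CPM have conditional binomial 95% intervals, a count of 0 was set to 3 and its ratio given as a bound, and a gene was called at 2-fold or more with at least 100 counts in both libraries together. With 1 library per condition there was no test and no p-value. Named genes were those of both type I lists, up to 4 per other list by size of ratio, and the 8 highest and 8 lowest of each comparison, applied to all members and to those with 5 or more markers. Of 42454 features, 2346 carried a repeated gene name with a suffix and were kept apart.

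The calculation was tested on simulated counts. Alternatives changed the cell filter, the markers needed, the Sftpc limit, other classes, doublets (Scrublet in scanpy 1.11.5), scaling (TMM in edgeR 4.0.16), the weight and depth of cells, the gene filter and the fold. Scrublet called 0, 4, 134 and 159 barcodes, too few at pnd7 to have worked there, and 2 members, so no doublets were removed. Promoters were taken from RefSeq on GRCm38.p6. Python 3.11.15, numpy 2.4.6, scipy 1.17.1, pandas 2.3.3 and R 4.3.3 were used.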

Additional observations from a re-analysis of the deposited data

Results flagged for a closer look

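The library of C12FDG-sorted cells, taken from hyperoxia mice at pnd7 by a dye that marks senescence-associated galactosidase activity, entered none of the comparisons and had no sorted air library beside it. Of its 493 passing barcodes 13 met the type I rule, a share of 2.64%, and 8 of these held 5 or more markers. In these 8 Hopx was at 6182 CPM, Cldn18 at 2969 CPM, Vegfa at 1575 CPM and Igfbp2 at 1905 CPM. Cdkn1a had 11 counts in them, or 117 CPM (58.4 to 209 CPM), and 17 counts in the 27 members of the unsorted Hyperoxia pnd7 library, or 47.6 CPM (27.7 to 76.2 CPM). Sort and library cannot be told apart in these values.

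In all members, 14 genes were past 2-fold in hyperoxia against air in opposite directions at pnd7 and at pnd60. The log2 ratios at pnd7 and pnd60 were -1.18 and 1.03 for Cdc42ep3, -2.08 and 2.54 for Clec7a, -1.47 and 1.93 for Coro1a, -1.79 and 1.76 for Ctss, -1.94 and 2.01 for Cybb, -2.15 and 1.47 for Fcer1g, -1.88 and 1.70 for Hmgb2. They were -2.23 and 2.23 for Lpl, -1.57 and 1.78 for Lsp1, -1.17 and 1.59 for Mpeg1, -1.79 and 1.44 for Ptprc, -1.52 and 4.20 for Sftpc, -1.11 and 1.42 for Tyrobp, and -1.70 and 1.04 for Vim. The difference between the ages was not tested, since each had 1 library per condition. Most of these genes are expressed by macrophages and other leukocytes, and Ptprc was found in 11, 6, 12 and 31 of 30, 30, 51 and 82 members. Among the members with 5 or more markers no gene was past 2-fold in opposite directions. Few could be, since of 514 genes only 7 were higher and 8 lower at pnd7, and 3 and 0 at pnd60.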

How the results depend on the processing

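No paired analysis was possible because the labels number no replicates and each condition had 1 library. Every value below counts genes past 2-fold in all members unless stated, of the genes compared in that setting. Main values were 109 of 1308 at pnd7 and 72 of 2146 at pnd60 for hyperoxia against air. For pnd60 against pnd7 they were 477 of 1381 in air and 529 of 2044 after hyperoxia. With 4 or more markers there were 72 of 1101 at pnd7, 30 of 824 at pnd60 and 316 of 1026 with age after hyperoxia. With 5 or more there were 4 of 616 at pnd60. With Ptprc, Pecam1, Col1a2 and Foxj1 at 0 and Epcam detected there were 6 of 340 at pnd7. With age there were 122 of 260 in air and 199 of 366 after hyperoxia, fewer genes but larger shares than in the main setting. With 5 or more markers and Ptprc, Pecam1, Col1a2 and Foxj1 at 0, a choice made after seeing the data, there were 9 of 386, 0 of 328, 168 of 317 and 211 of 441. Thinning to 1000 counts gave 427 of 1244 at pnd7 and 425 of 2097 at pnd60 for hyperoxia against air, where few counts remained. A minimum of 50 counts gave 302 of 2839, 193 of 4575, 972 of 3174 and 1070 of 4299. A minimum of 200 counts gave 45 of 562, 25 of 851, 234 of 550 and 239 of 821. No minimum gave 2876 of 10438, 1997 of 11849, 4372 of 11218 and 3944 of 11869. A fold of 1.5 gave 353, 248, 778 and 1028 of the genes compared in the main setting. Directions turned in part. At pnd7 more genes were higher than lower at a fold of 1.5 (228 and 125), with thinned cells (248 and 179), with no minimum (1467 and 1409), with the Epcam condition (5 and 1) and with no other class (7 and 2), against 42 and 67. At pnd60, 258 were higher and 167 lower with thinned cells, 28 and 67 with the Epcam condition and 15 and 15 with 4 or more markers, against 63 and 9. With age after hyperoxia, 372 were higher and 351 lower with thinned cells, 566 and 504 at 50 counts and 2506 and 1438 with no minimum, against 221 and 308, and in air 281 and 295 with thinned cells and 2264 and 2108 with no minimum, against 174 and 303. The share of members was 0.864% and 1.11% at pnd60 in air and after hyperoxia with 4 or more markers, and 0.751% and 0.967% with 5 or more. It was 0.347%, 1.04%, 0.341% and 0.294% with the Epcam condition, and 0.477%, 1.44%, 0.569% and 0.652% with 5 or more markers and no other class. Each list was paired with each of the 4 comparisons, and pairs with 3 or more genes compared were kept. Of 75 such pairs 33 had a median at least 0.5 from that of all genes. It was 21 of 61 with 4 or more markers, 21 of 57 with 5 or more, 19 of 50 with the Epcam condition, and 12 of 50 with 5 or more and no other class.

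Several signs of single genes turned, and the cause was not tested. For hyperoxia against air at pnd7, Scgb1a1 was at 1.99, 1.94, at least 0.62 (0 counts in air) and 2.09 in the last 4 settings, Stmn1 at 0.53 and 0.26 in the last 2, Sftpc at 0.89 with the Epcam condition, Mt2 at most -2.07 and -2.12 (0 counts in hyperoxia) with 4 or more and 5 or more markers, and Cdkn1c at -0.067 with 4 or more. At pnd60, Cd74 was at -0.17 and Tmsb10 at -0.15 with the Epcam condition, and Clec7a, Ear2 and Lyz2 at -2.004, -2.91 and -3.17 with 5 or more markers. Except for Sftpc, each of these values at pnd7 and pnd60 rested on fewer than 100 counts in both libraries together, too few for the comparison, so that their signs are not read. With age after hyperoxia, Hopx was at 0.28 and 0.32 and Cldn18 at 0.17 and 0.021 with 5 or more markers, without and with the condition on other classes, Col4a3 at 0.051 with 5 or more, and Col4a4 at 0.022, 0.31 and 0.13 with 4 or more, 5 or more, and 5 or more with no other class. Sftpc was at -1.08 and -1.94 with 5 or more markers without and with that condition, and at -0.11 with Sftpc under 0.5%. The median of the rule genes there was 0.28 and 0.32, and of the basement membrane genes, Col4a3 included, 0.11 and 0.13, with 5 or more markers without and with that condition. Leaving the rule genes out of 3 lists was also chosen after seeing the data. With thinned cells the medians with age in air were -0.14 for surfactant genes and 0.37 for leukocyte genes. Scaling by TMM moved the log2 ratios by 0.07, 0.11, -0.07 and 0.06 in the 4 comparisons.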

Other observations

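Csf1r, the receptor of macrophage colony-stimulating factor, was found in type I members that held neither of the leukocyte genes Ptprc and Tyrobp. Of the members with 5 or more markers, 12, 21, 27 and 36 in Air pnd7, Hyperoxia pnd7, Air pnd60 and Hyperoxia pnd60 lacked both, and 5, 7, 22 and 27 of these held Csf1r. Its level in them was 107, 53.7, 309.9 and 374 CPM, against 12.1, 0.991, 6.98 and 14.1 CPM in type II cells and 228, 251, 249 and 279 CPM in immune cells. At pnd60 the level in these members was thus above that in immune cells of the same libraries, and at pnd7 below it. Aqp1 in the same members was at 1543, 1319, 20.2 and 20.04 CPM, and Msln at 368, 445, 0 and 6.68 CPM. These 3 genes were singled out after their values were seen.

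A group of barcodes held 5 or more rule markers and was left out by the Sftpc limit alone. There were 62, 32, 11 and 12 barcodes with 5 or more rule markers and 2% or more of their counts in Sftpc, beside 21, 27, 33 and 46 members with as many markers. They were more than the members at pnd7 and fewer at pnd60. Lamp3 was at 1159, 1277, 2215 and 2933 CPM in them. Vegfa was at 843, 493, 1571 and 431 CPM and Igfbp2 at 724, 359.7, 232 and 69.8 CPM. Their median depth was 7027.5, 23729.5, 8981 and 7274 counts. Whether they were single cells or pairs of cells was not tested, and the doublet caller marked 0 and 4 barcodes in the pnd7 libraries.

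Ribosomal protein genes were lower at pnd60 in the members with 5 or more markers, a group taken after its values were seen. In air 74 of 77 compared were past 2-fold downward, beside 29.6% of all genes, with a median log2 ratio of -2.25, and their share of all counts was 12.6% at pnd7 and 2.86% at pnd60. After hyperoxia 67 of 77 were, beside 23.4% of all genes, with a median of -1.66, and the shares were 10.8% and 3.57%. In type II cells of the same libraries 28 of 83 in air and 16 of 83 after hyperoxia were past 2-fold downward, beside 3% and 4.37% of all genes, with medians of -0.81 and -0.62. Genes of the respiratory chain and ATP synthase had medians of -1.08 over 35 genes in air and -1.15 over 41 after hyperoxia in the type I members. Of these 19 and 26 were past 2-fold downward, beside the same shares of all genes. In type II cells the medians were -0.51 and -0.76 over 70 genes each, with 5 and 19 past 2-fold downward. Ribosomal protein genes have many near-identical pseudogenes, between which the counting could split reads.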
